A study of Mus musculus with 16 samples.

Results

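The set described here is a group of 7 transcription factors that come on as embryonic stem (ES) cells leave naive pluripotency: Otx2, Pou3f1, Zic2, Zic5, Foxd3, Sox3 and Sox4. They were chosen by gene symbol from a table of 27179 genes, and all 7 were found and passed the filter on low counts. RNA came from mouse ES cells in 8 groups of 2 libraries each. The cells, adapted from serum and leukaemia inhibitory factor (LIF) for 3 passages, were kept in either of 2 media that both held LIF and the inhibitor pair 2i, made up of 3 uM CHIR99021 against the kinase GSK3 and 1 uM PD0325901 against the kinase MEK. The medium labelled 2i/LIF had no serum, with DMEM/F-12, Neurobasal, N-2 and B-27, and the medium labelled serum/LIF+2i had knockout DMEM and 10% fetal bovine serum. Libraries were made at 0 h, while 2i and LIF were present, and 12, 24 and 40 h after a wash into serum-free medium that lacked both, a step called exit here. For cells from serum/LIF+2i the base of the exit medium also differed, being glutamine-free DMEM with Neurobasal and 2 mM glutamine added. The labels name neither the ES line nor its genotype, and do not say that the replicates were separate cultures, so the p-values measure only the spread between these libraries.

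Naive pluripotency is the state of the epiblast before implantation, and the formative state that follows it in the embryo is the state from which cells become able to enter the germ layers and the germline. OTX2 and POU3F1 are homeodomain proteins that bind new enhancers together with OCT4 in the formative state. ZIC2 and ZIC5 are zinc-finger proteins, FOXD3 is a forkhead protein, and SOX3 and SOX4 are HMG-box proteins of the SOXB1 and SOXC classes. Several of the 7 act again later, in the neural plate or, for FOXD3, the neural crest.

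Total counts ran from 5931381 to 11142744 per library, and the 4 ribosomal RNA genes with counts took 0.468% to 1.77% of them. A level of 3 counts, used as the floor of detection, came to at most 0.517 CPM, the unit in which a gene's counts are scaled to the size of its library. All 8 markers of pluripotent cells lay above the floor in every group, with a summed level of 3587 to 5644 CPM. The summed level of 10 naive markers went from 5192–5512 CPM over the 0 h libraries to 189–216 CPM at 40 h. All 10 were called lower at 40 h than at 0 h in both media, against 34.7% of all genes in 2i/LIF cells and 35.3% in serum/LIF+2i cells. Since RNA was taken from whole cultures, fewer cells of a type and less RNA per cell cannot be told apart.

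In the RefSeq annotation of GRCm38.p6, the assembly called mm10, 3 of the 7 genes lie on chromosome 14. Otx2 spans chr14:48656781-48667644 on the minus strand. Zic5 (chr14:122459160-122465658, minus strand) and Zic2 (chr14:122475384-122480328, plus strand) face away from each other, 9725 bases apart. Pou3f1 (chr4:124657646-124660655) and Foxd3 (chr4:99656299-99658671) lie on the plus strand of chromosome 4. Sox4 lies at chr13:28948919-28953699 and Sox3 at chrX:60891366-60893430, both on the minus strand. Pou3f1, Foxd3, Sox3 and Sox4 have 1 exon in every coding transcript of the GENCODE annotation, as do 4.86% of the 20639 counted genes with coding transcripts.

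Otx2 is the member whose course differed most between the media, so stretches before 2 of its 4 annotated starts are shown, each the 250 bases upstream on the gene's own strand, from RefSeq (GRCm38.p6). The capitals mark matches to any of 4 short motifs searched on both strands. These were the OTX-type site TAATCC (reverse GGATTA), the POU octamer ATGCAAAT, the SOX-type site ACAAAG and the TATA box TATAAA.
Otx2 start 1, chr14:48667645-48667894, minus strand: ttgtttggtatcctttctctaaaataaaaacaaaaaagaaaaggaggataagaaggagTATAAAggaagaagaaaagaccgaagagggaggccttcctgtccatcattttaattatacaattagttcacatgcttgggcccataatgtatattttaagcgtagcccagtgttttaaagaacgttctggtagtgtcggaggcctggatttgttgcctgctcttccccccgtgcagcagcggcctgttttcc
Otx2 start 3, chr14:48665110-48665359, minus strand: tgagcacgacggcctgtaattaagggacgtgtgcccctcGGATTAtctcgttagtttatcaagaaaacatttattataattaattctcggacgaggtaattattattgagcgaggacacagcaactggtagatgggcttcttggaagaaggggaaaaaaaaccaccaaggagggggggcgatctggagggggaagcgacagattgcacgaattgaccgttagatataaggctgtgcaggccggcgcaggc
The stretch before the first start holds a TATAAA, a motif present on either strand in 12.4% of 32851 mouse promoters of the same length. It begins at base 59 of the 250, counted from the end far from the start, and whether it acts as a TATA box was not tested. The stretch before the third start holds GGATTA, the reverse of the OTX-type site, which 6.25% of promoters hold on either strand. The other two Otx2 starts held none of the 4 motifs, and neither did the single promoters of Zic5, Foxd3 and Sox4. The octamer is in 1.6% of promoters and the SOX-type site in 16.5%. Pou3f1, Zic2 and Sox3 had no entry. A match is a run of letters and not a measured binding site.

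All 7 genes were higher at 12, 24 and 40 h than at 0 h in both media, by edgeR's quasi-likelihood test with Benjamini-Hochberg adjustment over 14288 genes and a threshold of 0.05. In cells from 2i/LIF the genes called higher made up 21.0% of all genes tested at 12 h, 29.2% at 24 h and 34.1% at 40 h. For cells from serum/LIF+2i those shares were 25.3%, 32.4% and 35.3%. The median log2 fold change of the 7 at 40 h was 3.54 in 2i/LIF cells and 2.92 in serum/LIF+2i cells, beside 0.01 and -0.0032 over all genes. The members were chosen with earlier results of these data known, so their calls and median are a description and not an independent test. The rise was not of a single shape. Foxd3 had its highest mean at 12 h, Otx2, Zic2 and Zic5 at 24 h, and Pou3f1, Sox3 and Sox4 at 40 h. The time of the highest mean was the same in both media, but not each was set apart from its neighbour. Foxd3 was not called between 12 and 24 h, nor Zic5 between 24 and 40 h, in either medium. Zic2 was not called between 24 and 40 h in 2i/LIF cells. Since 40 h was the last time sampled, no peak is shown for Pou3f1, Sox3 and Sox4.

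**Figure D1:**
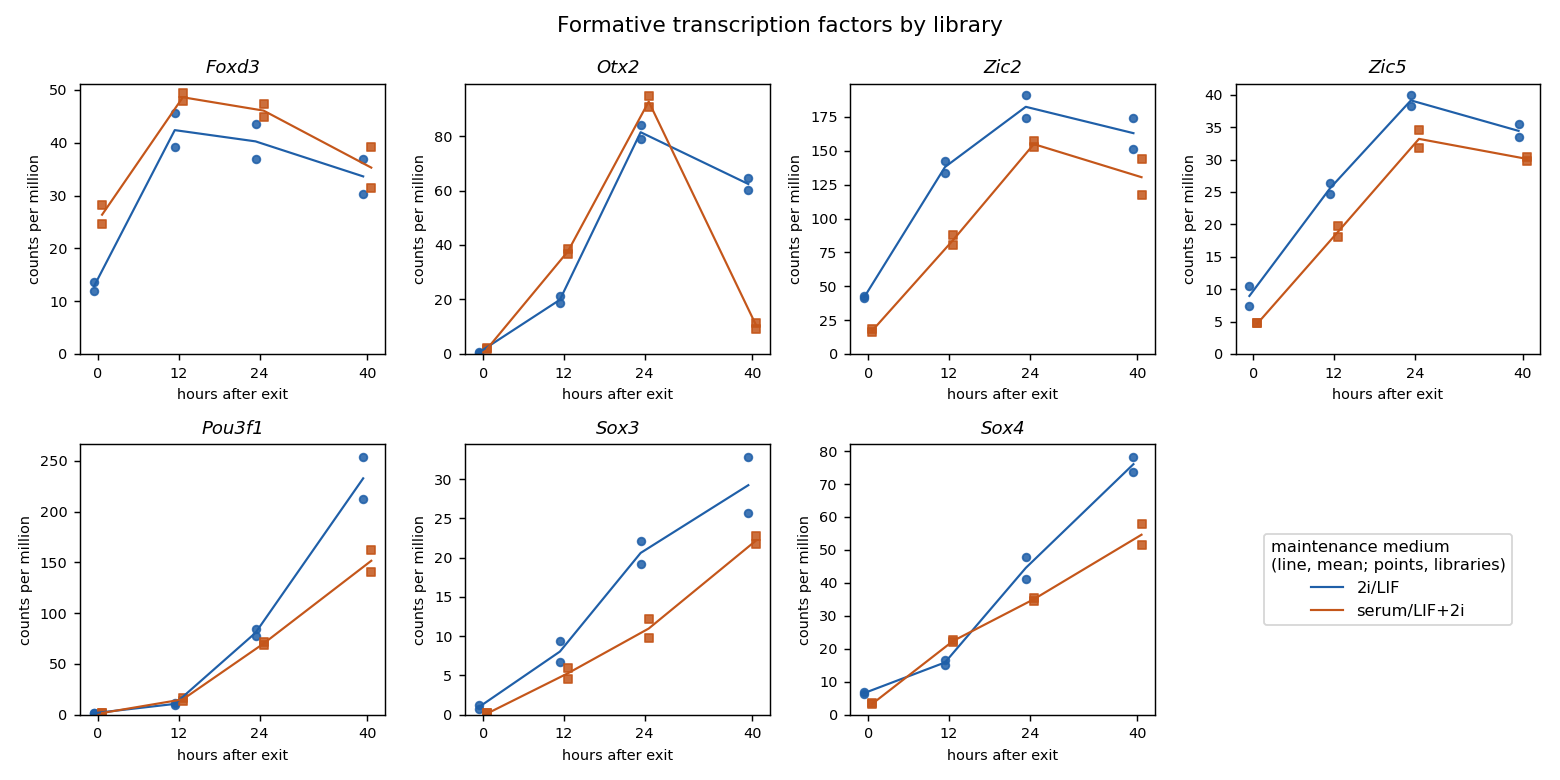
Level of each gene in CPM (vertical axis) against hours after exit, with 1 point per library and lines through the group means. Otx2 in cells from serum/LIF+2i (squares) drops from 24 to 40 h, to 11.3 and 9.29 CPM, while the 2i/LIF libraries (circles) stay at 64.8 and 60.1 CPM.

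Foxd3, which is needed to keep the early epiblast, was already expressed at 0 h and was the earliest to reach its highest mean. In cells from 2i/LIF its 2 libraries held 13.6 and 12.0 at 0 h, 39.2 and 45.6 at 12 h, 43.6 and 36.9 at 24 h and finally 36.9 and 30.3 at 40 h, in CPM. In cells from serum/LIF+2i they held 28.2 and 24.5 at 0 h, 49.3 and 47.9 at 12 h, 47.3 and 44.8 at 24 h and finally 39.1 and 31.5 at 40 h. The 0 h libraries were lower than every later library in both media, and those of serum/LIF+2i lay above those of 2i/LIF. The log2 rise by 12 h was 1.73 ± 0.13 (adjusted p = 5.92e-21) in 2i/LIF cells and 0.88 ± 0.10 (adjusted p = 5.44e-12) in serum/LIF+2i cells. Here and below the error of a log2 fold change is its standard error (SE). From 12 to 24 h Foxd3 gave -0.07 in 2i/LIF cells (95% interval -0.30 to 0.16) and -0.08 in serum/LIF+2i cells (-0.28 to 0.12), neither called. It was the exception in that step, in which the other 6 were called higher in both media, against 17.4% of all genes in 2i/LIF cells and 24.2% in serum/LIF+2i cells. By 40 h in serum/LIF+2i cells Foxd3 stood 0.43 ± 0.11 log2 units above 0 h (adjusted p = 0.000242), and without replicate 1 of that group the value was 0.26 with an adjusted p of 0.0644.

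Zic2 and Zic5, nearby genes of the same family, followed nearly the same course at different levels. Zic2 in cells from 2i/LIF stood at, in CPM, 42.4 and 41.5 at 0 h, 134 and 143 at 12 h, 191 and 174 at 24 h and finally 175 and 152 at 40 h. In cells from serum/LIF+2i it stood at, in CPM, 18.5 and 16.01 at 0 h, 88.0 and 80.2 at 12 h, 157 and 153 at 24 h and finally 144 and 117 at 40 h. Zic2 was thus well above the floor before exit in both media, and it did most of its climb by 12 h in 2i/LIF cells, reaching 75.6% of its highest mean there, against 54.3% in serum/LIF+2i cells. Its log2 rise by 24 h was 2.12 ± 0.12 (adjusted p = 4.38e-10) in 2i/LIF cells and 3.16 ± 0.14 (adjusted p = 1.74e-11) in serum/LIF+2i cells. Zic5 had group means (± SD, n = 2) of 8.95 ± 2.17, 25.6 ± 1.21, 39.1 ± 1.17 and 34.4 ± 1.43 CPM at the 4 times in 2i/LIF cells. In serum/LIF+2i they were 4.70 ± 0.00120, 18.9 ± 1.29, 33.2 ± 1.90 and 30.1 ± 0.435 CPM. The Zic5 rise by 24 h was 2.11 ± 0.14 (adjusted p = 4.23e-28) in 2i/LIF cells and 2.82 ± 0.16 (adjusted p = 2.88e-34) in serum/LIF+2i cells. Per length of transcript, Zic5 stood at 21.6% to 36.6% of Zic2 over the 16 libraries. The gene 2610035F20Rik, the counted gene between them, had mean levels of 2.25, 11.3, 15.7 and 11.6 CPM at the 4 times in 2i/LIF cells, and 1.40, 6.47, 15.6 and 9.03 CPM in serum/LIF+2i cells.

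Otx2, which later specifies the forebrain and midbrain, rose by more than 5 log2 units in both media by 24 h. The 2i/LIF libraries held, in CPM, 0.345 and 0.759 at 0 h, 18.6 and 21.1 at 12 h, 84.0 and 78.9 at 24 h and finally 64.8 and 60.1 at 40 h. Those of serum/LIF+2i held, in CPM, 1.62 and 2.20 at 0 h, 38.7 and 36.7 at 12 h, 94.6 and 90.8 at 24 h and finally 11.3 and 9.29 at 40 h. At 0 h these were 2 and 5 counts in 2i/LIF cells and 11 and 15 in serum/LIF+2i cells, so the groups at 0 h rest on few reads. At 24 h the 4 libraries lay between 78.9 and 94.6 CPM, and at 40 h the serum/LIF+2i libraries were far below those of 2i/LIF, yet above their own at 0 h. The fitted log2 rise by 24 h was 7.13 ± 0.21 (adjusted p = 5.69e-61) in 2i/LIF cells and 5.59 ± 0.15 (adjusted p = 2.25e-64) in serum/LIF+2i cells. As a ratio of summed counts, scaled for depth, Otx2 at 24 h was 144 (95% interval 69.8 to 359.7) times its 0 h level in 2i/LIF cells and 48.5 (95% interval 33.0 to 74.4) times in serum/LIF+2i cells, the interval covering counting error only. By 40 h the ratio was 111 (95% interval 53.5 to 276) in 2i/LIF cells and 5.42 (95% interval 3.603 to 8.47) in serum/LIF+2i cells. The antisense gene Otx2os1, which overlaps Otx2 in the GENCODE annotation, had at most 8 counts in any library. How strand was treated in counting is not given in the sources used here, so how reads from the overlap of the 2 genes were counted is not known.

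Pou3f1, also called Oct6, was called higher by 12 h in both media but had its highest mean at 40 h, the last time sampled. Its libraries from 2i/LIF held, in CPM, 1.38 and 1.52 at 0 h, 9.59 and 11.5 at 12 h, 84.0 and 77.2 at 24 h and finally 253 and 212 at 40 h. Those from serum/LIF+2i held, in CPM, 1.47 and 1.76 at 0 h, 13.5 and 16.6 at 12 h, 71.3 and 68.7 at 24 h and finally 162 and 141 at 40 h. At 12 h Pou3f1 had reached 4.53% of its highest mean in 2i/LIF cells and 9.94% in serum/LIF+2i cells, and the 40 h libraries lay above all others in both media. Its log2 rise by 40 h was 7.31 ± 0.18 (adjusted p = 2.73e-24) in 2i/LIF cells and 6.54 ± 0.18 (adjusted p = 6.40e-23) in serum/LIF+2i cells.

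Sox3, a SOXB1 gene of the neural plate, started near or below the floor. In 2i/LIF it held, in CPM, 1.21 and 0.759 at 0 h, 6.72 and 9.36 at 12 h, 22.1 and 19.1 at 24 h and finally 32.8 and 25.7 at 40 h. In serum/LIF+2i it held, in CPM, 0.147 and 0.147 at 0 h, 4.60 and 5.96 at 12 h, 12.2 and 9.78 at 24 h and finally 21.7 and 22.7 at 40 h, the 0 h values being 1 count in each library. Every library of a later time was above every library of an earlier time within a medium. Because the 0 h level in serum/LIF+2i cells is below the floor, its rise is given as a ratio of counts, which at 40 h was 151 (95% interval 41.6 to 1251). The ratio at 40 h in 2i/LIF cells was 30.3 (95% interval 17.2 to 59.2).

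Sox4, a SOXC gene of progenitor cells, rose steadily. In 2i/LIF it held, in CPM, 6.72 and 6.38 at 0 h, 16.6 and 15.1 at 12 h, 47.9 and 41.2 at 24 h and finally 78.3 and 73.8 at 40 h. In serum/LIF+2i it held, in CPM, 3.09 and 3.52 at 0 h, 22.2 and 22.6 at 12 h, 34.6 and 35.5 at 24 h and finally 57.7 and 51.5 at 40 h. The groups of the 4 times did not overlap in either medium. The log2 rise by 40 h was 3.54 ± 0.13 (adjusted p = 1.82e-51) in 2i/LIF cells and 4.04 ± 0.15 (adjusted p = 9.33e-51) in serum/LIF+2i cells. At 12 h it was at 20.8% of its highest mean in 2i/LIF cells and at 41.0% in serum/LIF+2i cells.

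**Figure D2:**
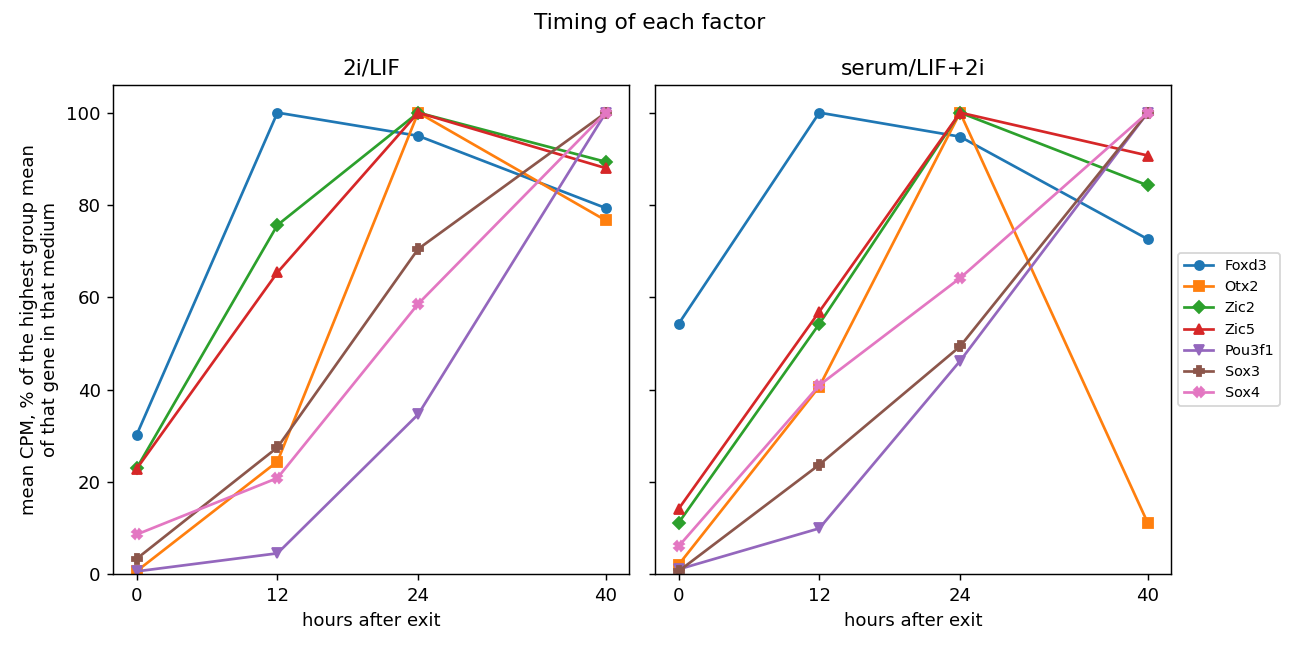
Mean level of each gene as a percent of its own highest group mean within a medium (vertical axis) against hours after exit, with a panel per medium. Foxd3 is at 100% at 12 h and Otx2, Zic2 and Zic5 at 24 h in both panels. Otx2 stands at 76.6% at 40 h in 2i/LIF cells and at 11.1% in serum/LIF+2i cells.

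The last step, 40 h against 24 h, split the set. In cells from 2i/LIF 3 of the 7 were called higher and 2 lower, against 22.2% and 24.5% of all genes, and in cells from serum/LIF+2i 3 were higher and 3 lower, against 25.9% and 24.6%. Pou3f1, Sox3 and Sox4 were the 3 that rose in both. Pou3f1 rose by 1.53 ± 0.08 (adjusted p = 7.76e-16) in 2i/LIF cells and 1.12 ± 0.08 (adjusted p = 5.50e-13) in serum/LIF+2i cells. Sox4 rose by 0.77 ± 0.08 (adjusted p = 1.14e-14) and 0.64 ± 0.08 (adjusted p = 1.24e-11), in the same order. Sox3 rose by 0.51 ± 0.13 (adjusted p = 0.000401) in 2i/LIF cells and 1.02 ± 0.13 (adjusted p = 5.64e-11) in serum/LIF+2i cells. The Sox3 call in 2i/LIF cells rested on replicate 1 at 40 h, without which the value was 0.31 with an adjusted p of 0.104.

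Otx2 fell in this step in both media, by a little in 2i/LIF cells, where the log2 fold change was -0.38 ± 0.07 (adjusted p = 6.67e-06), and steeply in serum/LIF+2i cells, where it was -3.16 ± 0.09 (adjusted p = 4.72e-60), a drop of 8.94-fold. Foxd3 gave -0.38 ± 0.09 (adjusted p = 0.000167) in serum/LIF+2i cells. Its value in 2i/LIF cells, -0.26 ± 0.10 (adjusted p = 0.0324), lost the call under DESeq2 (adjusted p = 0.183) and without replicate 1 at 24 h (-0.13, adjusted p = 0.455) or replicate 2 at 40 h (-0.13, adjusted p = 0.417). The Zic genes held near their 24 h level. Zic2 gave -0.24 ± 0.08 (adjusted p = 0.0274) in serum/LIF+2i cells, a call lost under DESeq2 (adjusted p = 0.0897) and without either 24 h library or replicate 2 at 40 h (adjusted p of 0.0831 to 0.14). Zic2 in 2i/LIF cells gave -0.16 (95% interval -0.36 to 0.04), and Zic5 gave -0.18 (-0.41 to 0.05) in 2i/LIF cells and -0.14 (-0.35 to 0.07) in serum/LIF+2i cells, none of them called. The Zic2 value in 2i/LIF cells was called with no low-count filter (adjusted p = 0.00455), in a fit of only the groups compared (0.0273) and without replicate 1 at 40 h (-0.27, 0.0129).

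**Figure D3:**
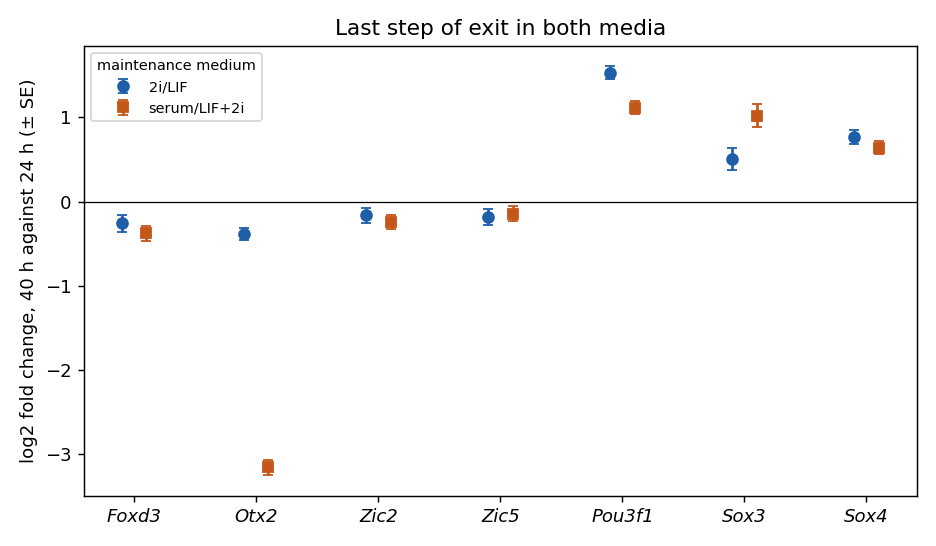
Log2 fold change of each gene from 24 to 40 h after exit (vertical axis, bars ± SE) in cells from 2i/LIF (circles) and serum/LIF+2i (squares). Otx2 is at -0.38 in 2i/LIF cells and -3.16 in serum/LIF+2i cells, and for the other 6 genes the media lie within 0.52 of each other.

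The difference between the media in this step was tested as an interaction, the change in serum/LIF+2i cells minus that in 2i/LIF cells. It holds the differences of both the maintenance medium and the base of the exit medium, which cannot be told apart. Over all genes 5.63% were called lower and 6.57% higher, and of the 7 members 2 were called, both lower. For Otx2 the interaction was -2.78 ± 0.12 (adjusted p = 5.52e-40). For Pou3f1 it was -0.41 ± 0.11 (adjusted p = 0.0127), its rise being the smaller in serum/LIF+2i cells. The Pou3f1 call was lost under DESeq2 (adjusted p = 0.0582), in a fit of only the 4 groups concerned (0.146), and without replicate 2 of 2i/LIF (0.0925) or replicate 1 of serum/LIF+2i (0.0722) at 24 h. Sox3 stood at 0.52 (95% interval 0.09 to 0.94, adjusted p = 0.0516), not called. It was called with library size only (0.0486), in a fit of only the groups concerned (0.0417) and without replicate 2 at 24 h or replicate 1 at 40 h of 2i/LIF or replicate 1 at 24 h of serum/LIF+2i (adjusted p of 0.012 to 0.0426). The intervals of the remaining 4 were -0.36 to 0.20 for Zic2, -0.27 to 0.35 for Zic5, -0.43 to 0.20 for Foxd3 and -0.39 to 0.14 for Sox4.

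Cells from serum/LIF+2i were then compared with cells from 2i/LIF at each time. After 0 h the base of the exit medium differed too, so its part and that of the maintenance medium cannot be told apart. At 0 h, before exit, 2 members were higher in serum/LIF+2i cells and 4 lower, against 14.6% and 18.4% of all genes. The 2 were Foxd3 (1.05 ± 0.15, adjusted p = 7.39e-09) and Otx2 (1.73 ± 0.55, adjusted p = 0.00864). Otx2 kept the direction but lost the call without replicate 1 of 2i/LIF (1.30, adjusted p = 0.124) or replicate 2 of serum/LIF+2i (1.48, adjusted p = 0.091), and as a ratio of counts it was 3.38 (95% interval 1.43 to 9.22). Lower in serum/LIF+2i cells were Zic2 (-1.28 ± 0.19, adjusted p = 8.11e-05), Sox4 (-0.98 ± 0.26, adjusted p = 0.00168), Zic5 (-0.94 ± 0.22, adjusted p = 0.000362) and Sox3. The Zic5 call was lost without replicate 2 of 2i/LIF (-0.66, adjusted p = 0.0832). Sox3 at 1 count per library against 2i/LIF gave a ratio of 0.152 (95% interval 0.0165 to 0.681), and its call (adjusted p = 0.0181) was lost under DESeq2 (0.0602) and without any of 3 of the 4 libraries (0.0745 to 0.137). Pou3f1 did not pass, at 0.15 (95% interval -1.23 to 1.54).

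At 12 h 3 members were higher in serum/LIF+2i cells and 3 lower, against 14.8% and 15.5% of all genes. Otx2 was higher by 0.92 ± 0.11 (adjusted p = 1.84e-12) and Sox4 by 0.50 ± 0.13 (adjusted p = 0.000875), the latter the opposite of its difference at 0 h. Zic2, at -0.72 ± 0.10 (adjusted p = 5.67e-05), and Zic5, at -0.43 ± 0.12 (adjusted p = 0.00241), were lower. Pou3f1 (0.53 ± 0.20, adjusted p = 0.0425) and Sox3 (-0.59 ± 0.21, adjusted p = 0.0275) each lost the call when single libraries were left out, Pou3f1 in 3 of 4 cases (adjusted p of 0.0802 to 0.326) and Sox3 in 2 of 4 (0.215 and 0.432). Pou3f1 also lost it without ribosomal RNA genes (0.0604) and Sox3 under DESeq2 (0.1). Foxd3 stood at 0.19 (95% interval -0.02 to 0.41), not called, whereas it had differed at 0 h. Without replicate 2 of 2i/LIF at 12 h its value was 0.31.

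At 24 h the fewest members were called, with 1 higher and 2 lower, against 14.1% and 17.0% of all genes. Sox3 (-0.92 ± 0.15, adjusted p = 1.38e-07) and Sox4 (-0.35 ± 0.09, adjusted p = 0.00131) were lower in serum/LIF+2i cells, the Sox4 call being lost without replicate 1 of 2i/LIF (-0.23, adjusted p = 0.147). Otx2 was higher by 0.18 ± 0.07 (adjusted p = 0.0284), which DESeq2 did not call (adjusted p = 0.201), nor did fits without replicate 2 of 2i/LIF (0.239) or without either serum/LIF+2i library (0.18 and 0.056). Not called were Zic2 (-0.24 ± 0.09, adjusted p = 0.0503), Zic5 (-0.23 ± 0.10, adjusted p = 0.0512), Pou3f1 (-0.21 ± 0.09, adjusted p = 0.086) and Foxd3 (0.19 ± 0.09, adjusted p = 0.119). Zic2 and Pou3f1 were called with no low-count filter (5.43e-05 and 0.0175) and in a fit of only the groups compared (6.78e-05 and 0.0167), Zic2 without replicate 2 of 2i/LIF (0.04) and Foxd3 without replicate 1 of it (0.0478). At 40 h none was higher and 5 were lower, against 13.9% and 13.4% of all genes. Otx2 was lower by the most, at -2.59 ± 0.10 (adjusted p = 6.93e-46), with its serum/LIF+2i libraries at 11.3 and 9.29 CPM and those of 2i/LIF at 64.8 and 60.1. Pou3f1 followed at -0.62 ± 0.07 (adjusted p = 1.96e-08), then Sox4 at -0.48 ± 0.07 (adjusted p = 4.93e-08), Sox3 at -0.40 ± 0.11 (adjusted p = 0.0037) and Zic2 at -0.32 ± 0.09 (adjusted p = 0.0135). Without replicate 1 of 2i/LIF at 40 h, Zic2 stood at -0.21 (adjusted p = 0.103) and Sox3 at -0.21 (0.365), and 3 members were called in place of 5. The Sox3 call was also lost without replicate 1 of serum/LIF+2i (0.0521) and under DESeq2 (0.17). Zic5 (-0.19, 95% interval -0.41 to 0.03) and Foxd3 (0.07, -0.15 to 0.30) did not pass.

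**Figure D4:**
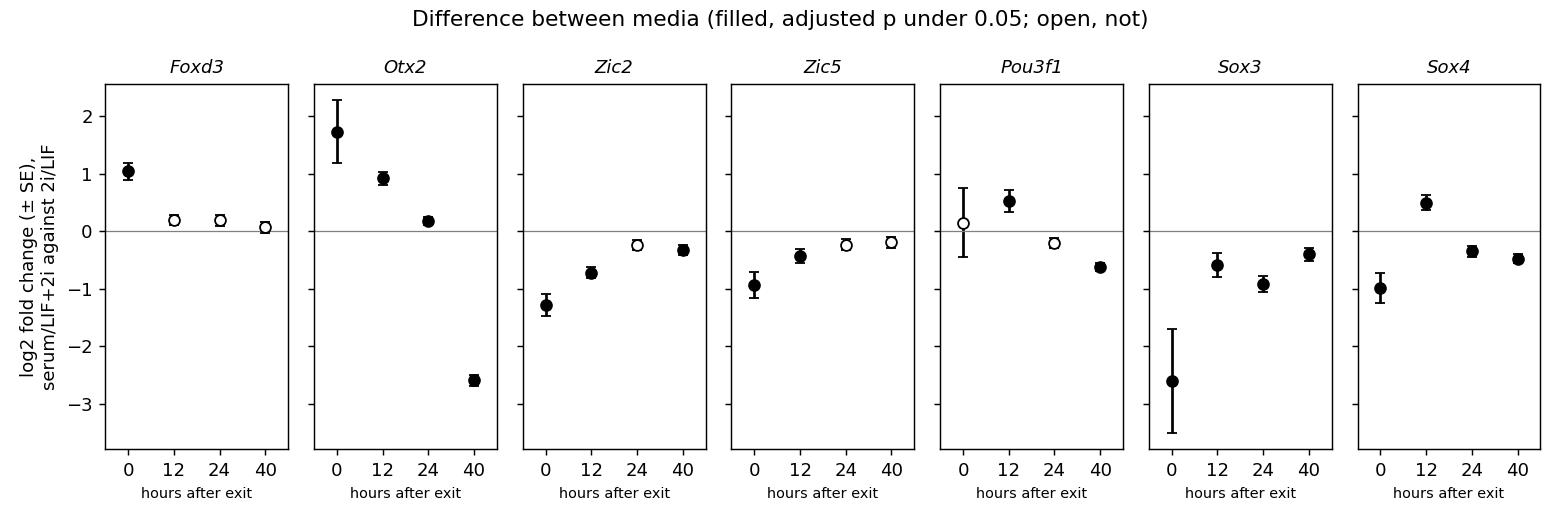
Log2 fold change of serum/LIF+2i against 2i/LIF (vertical axis, bars ± SE) at each time after exit, with a panel per gene, filled points having an adjusted p under 0.05. Otx2 goes from 1.73 at 0 h to -2.59 at 40 h, and Zic2 and Zic5 lie below 0 at all 4 times.

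The change since 0 h was compared between cells from the media in the same kind of test, with the same limit from the exit medium. It was taken as the change from 0 h in serum/LIF+2i cells minus that in 2i/LIF cells. At 12 h 1 member was higher and 1 lower, against 4.80% and 4.40% of all genes, a split of calls that went from 52.2% to 41.3% higher when ribosomal RNA genes were left out. These were Sox4 (1.48 ± 0.29, adjusted p = 8.07e-05) and Foxd3 (-0.85 ± 0.18, adjusted p = 0.000256). Zic2, at 0.56 (adjusted p = 0.142), was not called, but was with no low-count filter (adjusted p = 0.000308) and in a fit of only the groups compared (0.00102). At 24 h Zic2 (1.04 ± 0.21, adjusted p = 0.00203) and Zic5 (0.71 ± 0.24, adjusted p = 0.0263) rose more from serum/LIF+2i, and Foxd3 (-0.86 ± 0.18, adjusted p = 9.09e-05) and Otx2 (-1.54 ± 0.56, adjusted p = 0.0338) rose less, against 9.77% of all genes higher and 11.0% lower. The Zic5 and Otx2 calls were lost under DESeq2 (adjusted p of 0.0704 and 0.0763), and without either serum/LIF+2i 0 h library for Zic5 (0.078 and 0.088) or replicate 2 of it for Otx2 (0.19). Without 1 library of 2i/LIF at 0 h, replicate 2 for Zic5 and replicate 1 for Otx2, the values were 0.43 (0.365) and -1.11 (0.258). Zic5 also lost the call without replicate 1 of 2i/LIF (0.0544) or replicate 2 of serum/LIF+2i (0.0707) at 24 h. At 40 h the same 4 genes were called in the same directions, against 14.8% higher and 12.8% lower. They were Zic2 (0.96 ± 0.21, adjusted p = 0.00292), Zic5 (0.75 ± 0.24, adjusted p = 0.0137), Foxd3 (-0.97 ± 0.18, adjusted p = 7.52e-06) and Otx2 (-4.32 ± 0.54, adjusted p = 6.68e-11). Zic5 lost the call at 40 h without replicate 2 of 2i/LIF (0.46, adjusted p = 0.296) or either library of serum/LIF+2i (0.0539 and 0.0526) at 0 h. Pou3f1 and Sox3 were not called at any of the 3 times, and Sox4 was called at 12 h alone, its values at 24 and 40 h being 0.63 and 0.51 with adjusted p of 0.0979 and 0.17. The Sox3 values rest on the 1 count per library at 0 h. These tests and those at 0 h share the 0 h libraries. For each of the 5 genes called in them, Otx2, Zic2, Zic5, Foxd3 and Sox4, the difference at 0 h between media had the opposite sign to the called interaction.

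Levels of different genes can be set side by side only per length, here as RPKM, the CPM divided by the transcript length in kilobases. At 0 h in 2i/LIF cells Zic2 was the highest of the 7 at 14.1 ± 0.221 RPKM (SD, n = 2), followed by Foxd3 at 5.40 ± 0.481, and Pou3f1, Sox3 and Otx2 were lowest with libraries that overlapped. At 0 h in serum/LIF+2i cells the order of these was turned, with Foxd3 at 11.1 ± 1.10 and Zic2 at 5.82 ± 0.597. By 24 h Otx2 was second in 2i/LIF cells at 46.9 ± 2.09, below Zic2 at 61.5 ± 3.99, and level with Zic2 in serum/LIF+2i cells, where the libraries of the pair overlapped at 53.4 ± 1.54 and 52.2 ± 1.10. At 40 h Pou3f1 led in both media, at 77.3 ± 9.79 in 2i/LIF cells and at 50.3 ± 5.02 in serum/LIF+2i cells, the latter overlapping Zic2 at 44.0 ± 6.26. Otx2 ranked below Pou3f1 and Zic2 in 2i/LIF cells at 35.9 ± 1.91 and last in serum/LIF+2i cells at 5.92 ± 0.814. Zic5, Foxd3 and Sox3 did not separate at 40 h in 2i/LIF cells, with means between 14.2 and 14.5 RPKM.

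The likeness of 2 courses was measured as the root mean square distance of their group-mean log2 CPM over the 8 groups, each gene centred on its own mean, among genes that passed the filter. Within the set the closest pair was Zic2 and Zic5, at 0.16, and the farthest was Pou3f1 and Foxd3, at 2.28. Otx2 stood apart from the rest, its nearest member being Sox3 at 1.44. Over the whole table the genes nearest to Otx2 were Slc35d3 (0.80), Cass4 (0.87), Enpp3 (0.91), Spn (0.94) and Fgf5 (0.98), where the median distance from Otx2 to all genes was 2.39. Slc35d3, Cass4, Spn and Fgf5 had at most 4 counts in any library at 0 h. The 0 h part of these distances thus depends on the prior count of 2 added before the logarithm. Fgf5, a growth factor of the early postimplantation epiblast, went from 11.3 ± 4.21 to 17.2 ± 3.98 CPM between 24 and 40 h in 2i/LIF cells and from 6.24 ± 1.19 to 3.17 ± 0.582 in serum/LIF+2i cells. Slc35d3 went from 9.45 ± 0.604 to 9.04 ± 0.493 CPM and from 16.1 ± 0.485 to 4.29 ± 0.873, in the same order. The other members had far closer neighbours. Those of Foxd3 were L1td1 (0.11), Hecw2 (0.15) and Cers4 (0.16), with a median over all genes of 0.67. Among those of Zic2 were Zic5 (0.16) and 2610035F20Rik (0.24), with a median of 1.15, and for Zic5 they were Zic2 (0.16), Tex11 (0.17) and Ccdc88b (0.20), with a median of 1.04. Sox4 lay nearest to Mid1ip1 (0.25), Neurog3 (0.26) and Oprl1 (0.30), with a median of 1.45. Sox3 lay nearest to Selenop (0.27), Crabp2 (0.36) and Efnb2 (0.39), with a median of 2.06, and Pou3f1 to Pcdh1 (0.36), Dll1 (0.51) and Wt1 (0.57), with a median of 2.59.

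The wider formative network was followed through 20 other genes, all of which passed the filter. This list too was chosen with earlier results of these data known, so its counts here and below are a description only. At 40 h against 0 h in 2i/LIF cells 16 were called higher, 2 lower and 2 were not called, with a median log2 fold change of 3.37. In serum/LIF+2i 15 were higher and 5 lower, with a median of 2.88. Over all genes 34.1% were called higher and 34.7% lower from 2i/LIF, against 35.3% and 35.3% from serum/LIF+2i. The 3 with the smallest adjusted p were the same in both media, in order of 2i/LIF and serum/LIF+2i the DNA methyltransferase Dnmt3a at 4.14 and 4.26, the RNA-binding gene Lin28a at 3.42 and 2.91, and the kinase Pim2 at 5.83 and 5.87. Lower were Nodal, a signalling ligand of the epiblast, at -0.53 and -1.26, and Tcf7l1, a repressor in the Wnt pathway, at -0.40 and -0.87. Rbpj (0.03) and Etv5 (0.01) were not called in 2i/LIF cells, and in serum/LIF+2i cells Rbpj (-0.66), Etv5 (-0.33) and Mycn (-0.32) were lower.

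Between 24 and 40 h 10 of the 20 were called higher and 7 lower in 2i/LIF cells, and 7 higher and 12 lower in serum/LIF+2i cells. All-gene shares in that step were 22.2% higher and 24.5% lower in the former, and 25.9% and 24.6% in the latter. The interaction of this step was called lower for 12, higher for 1 and not called for 7, against 5.63% of all genes called lower and 6.57% higher, with a median of -0.25 beside 0.01 over all genes. The smallest adjusted p were those of Dnmt3a (-0.68 ± 0.05, adjusted p = 2.28e-23), Mycn (-0.71 ± 0.08, adjusted p = 2.93e-10) and Pim2 (-0.44 ± 0.07, adjusted p = 1.39e-07), and the 1 called higher was Tcf15 (0.48 ± 0.16, adjusted p = 0.0288). Dnmt3a went from 932 ± 3.12 to 1281 ± 14.5 CPM in 2i/LIF cells and from 1216 ± 12.3 to 1045 ± 11.4 in serum/LIF+2i cells. For Mycn these levels were 183 ± 4.32 and 177 ± 20.4 in 2i/LIF cells and 160.3 ± 5.46 and 94.6 ± 8.88 in serum/LIF+2i cells. The genes not called in that interaction were Cdh2 (0.63), Etv4 (0.19), Etv5 (-0.11), Lef1 (0.07), Nodal (0.07), Rbpj (-0.18) and Zfp281 (-0.08).

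Of 15 relatives of the 7 in the same gene families, 8 passed the filter, and at 40 h against 0 h 4 of these were called higher and 3 lower in both media. Over all genes 34.1% were called higher and 34.7% lower from 2i/LIF, and 35.3% and 35.3% from serum/LIF+2i, so the share of relatives called lower is near that background. Crx, Foxd2, Foxd4, Pou3f3, Pou3f4, Zic1 and Zic4 did not pass the filter. Sox1, the SOXB1 relative of Sox3, had a mean of 22.6 ± 4.71 CPM at 40 h in 2i/LIF cells and 47.2 ± 3.81 in serum/LIF+2i cells, the opposite order to Sox3. Sox2, the SOXB1 gene of naive and later pluripotency, had means of 358 ± 20.01 CPM at 0 h and 142 ± 0.494 by 40 h in 2i/LIF cells, and of 403 ± 26.6 and 144 ± 10.7 in serum/LIF+2i cells. The SOXC relatives of Sox4 were Sox11, with means of 15.7 ± 1.63 CPM at 0 h and 113 ± 7.94 by 40 h in 2i/LIF cells and 12.9 ± 3.11 and 130.1 ± 8.24 in serum/LIF+2i cells, and Sox12, with 49.0 ± 6.93 and 160.4 ± 5.55 and with 46.6 ± 4.45 and 182 ± 4.56. The direct relatives of Otx2 and Pou3f1 stayed low, with Otx1 at means of up to 1.46 CPM and Pou3f2 of up to 3.89 CPM in any group. Foxd1 had means of up to 6.55 CPM.

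Markers of other cell types were read beside these results. Of 8 neural progenitor markers, 4 to 5 lay above the floor in each group, with a summed level of 15.2 to 18.2 CPM at 0 h, reaching 74.5 to 76.0 CPM by 40 h in 2i/LIF cells and of 33.9 to 34.7 and 84.3 to 87.7 CPM in serum/LIF+2i cells. Sox1 is on that list. Hes5 and Neurog2 were at 0 at 40 h in 2i/LIF cells, and no neural marker was at 0 there in serum/LIF+2i cells. Yet 5 of the 8 lay above the floor in both of these groups. The serum/LIF+2i libraries at 40 h were also the deeper, with 11142744 and 9926274 counts against 7858428 and 7173358 in 2i/LIF. The part of depth in the zeros was not tested. The sum was higher at 40 h than at 0 h in both media, as were Pou3f1, Sox3 and Sox4. The neural sum does not show the course of each marker. Only 3 neural markers were tested, and at 40 h against 0 h all 3 were called higher in 2i/LIF cells, against 34.1% of all genes. In serum/LIF+2i cells 2 were called higher and 1 was not called, against 35.3% of all genes called higher. From 12 to 24 h Pou3f1, Sox3 and Sox4 were called higher in both media. The neural sum went from 43.2–46.8 to 39.5–39.7 CPM in that step in serum/LIF+2i cells. In 2i/LIF cells it went from 38.1–38.4 to 40.6–43.7 CPM. The part of the neural sum in the rise of these genes was not tested. Primitive streak markers summed to at most 5.23 CPM at 40 h and to 21.9 to 40.8 CPM at 0 h, with Gsc at 0 in all libraries at 40 h. Primitive endoderm markers summed to 161–180 CPM at 0 h and 15.7–22.3 CPM at 40 h, trophoblast markers to 95.03–115 and 18.1–19.7 CPM, and fibroblast markers to at most 23.7 CPM. The primitive endoderm sum does not show the course of each marker. Of the 5 tested at 40 h against 0 h, 2 were called higher and 2 lower in 2i/LIF cells. In serum/LIF+2i cells 2 were called higher and 1 lower. Over all genes 34.1% were called higher and 34.7% lower in the former, and 35.3% and 35.3% in the latter. The primitive endoderm sum was 10.6–11.6 CPM at 24 h in serum/LIF+2i cells and 21.5–22.3 CPM at 40 h. Otx2 fell there in that step. Of the 5 markers tested, 3 were called higher and 0 lower in it, against 25.9% and 24.6% of all genes. In 2i/LIF cells the primitive endoderm sum was 13.9–14.4 and 15.7–18.9 CPM at these times. The rise in serum/LIF+2i cells was not particular to primitive endoderm. There the neural sum went from 39.5–39.7 to 84.3–87.7 CPM and the fibroblast sum from 6.01–6.53 to 12.8–14.7 CPM. The trophoblast sum overlapped, at 17.8–20.4 and 18.4–19.6 CPM, and the primitive streak sum fell from 5.64–8.05 to at most 5.23 CPM. The part of these sums in the results was not tested.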

How the data were processed

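RNA was sequenced from 16 libraries of mouse ES cells, extracted with TRIzol and prepared with the TruSeq Stranded mRNA kit, per the labels' protocols. Groups and replicates come from sample titles. Titles at 12 h were followed for serum/LIF+2i although the protocol names only 24 and 40 h there. The authors deposited whole-number counts per gene, with Entrez identifier, symbol and length (1049 genes had no symbol). The submitters' processing notes name fastp, STAR, featureCounts and mm10, without versions, and the annotation is not given in the sources used here. No column was set aside (0).

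In edgeR 4.0.16 (R 4.3.3, limma 3.58.1), filterByExpr (minimum count 10, minimum total 15) left 14288 genes, TMM scaled the libraries, and 1 model of 8 groups (8 residual degrees of freedom, common biological coefficient of variation 3.19%) was tested by the robust quasi-likelihood F test, two-sided, in 18 comparisons. Standard errors follow from F, and 95% intervals use 8 degrees of freedom and are not adjusted for the number of tests. The F test used other degrees of freedom, so an interval can span 0 where its unadjusted p is under 0.05. Foxd3 between media at 12 h is such a case (F test, unadjusted p = 0.0385). CPM use TMM-scaled totals, RPKM the deposited lengths, and likeness a prior count of 2. Count ratios carry exact 95% intervals. Replicates differed by more than sampling noise in every group (chi-square per degree of freedom 1.35 to 2.88), so none was a copy of another. The script was tested on simulated data.

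Members and lists were chosen with earlier results of these data known. Named by rule are all members, up to 3 genes of the formative list per comparison by adjusted p plus those not called or opposite (Fgf5 by likeness), all family relatives, and the nearest 3 genes (5 for Otx2) by likeness; 2 genes that this rule names are not reported here. Alternatives were DESeq2 1.42.0, its size factors in edgeR, library size only, no low-count filter, no ribosomal RNA genes, only the groups compared, a replicate block and each library left out. Promoters come from RefSeq tables (Python 3.11.15, pandas 2.3.3).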

Additional observations from a re-analysis of the deposited data

Results flagged for a closer look

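For 12 values among the 7 genes the change over time differed between the media by the interaction test of edgeR's quasi-likelihood method, each given as serum/LIF+2i minus 2i/LIF on the log2 scale. From 0 to 12 h these were Foxd3 at -0.85 and Sox4 at 1.48. From 0 to 24 h they were Otx2 at -1.54, Zic2 at 1.04, Zic5 at 0.71 and Foxd3 at -0.86. From 0 to 40 h they were Otx2 at -4.32, Zic2 at 0.96, Zic5 at 0.75 and Foxd3 at -0.97. From 24 to 40 h they were Otx2 at -2.78 and Pou3f1 at -0.41. The last 2 use no 0 h library, whereas the first 10 share the 0 h libraries, where Otx2 rests on 2 to 15 counts.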

How the results depend on the processing

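Over the 18 comparisons of the 7 genes, 1497 alternative values were computed, of which 1413 kept the direction and the side of the threshold, 50 lost the call, 25 gained one and 9 changed sign. All 9 sign changes came from leaving out 1 library and concern values that were not called. Their leave-one-out ranges were -0.20 to 0.038 for Foxd3 from 12 to 24 h in 2i/LIF, -0.10 to 0.23 for Foxd3 between media at 40 h, and, in the last-step interactions, -0.25 to 0.039 for Zic2, -0.30 to 0.038 for Foxd3 and -0.015 to 0.10 for Zic5. The Otx2 differences at 40 h between media and in the last step kept their calls under every alternative run. DESeq2 called fewer genes than edgeR between media, 3115 of edgeR's 4710 in number at 0 h, 2668 against 4334 at 12 h, 2729 against 4439 at 24 h and 2010 against 3897 at 40 h. In the interactions it called 574 against 1315 at 12 h, 1789 against 2966 at 24 h, 2419 against 3940 at 40 h and 783 against 1743 in the last step. The cause was not tested. Of the 7 members, DESeq2 called 2 against 4 in the interaction at 24 h and 1 against 2 in that of the last step. Between media at 24 h, 3 members were called, but 5 with no low-count filter, 5 with only the groups compared and 6 with the replicate block. Leaving out each library in turn gave 3 to 5 members and 2240 to 3245 genes between media at 40 h, lowest without replicate 1 of 2i/LIF, and 2 to 4 members in the interaction at 24 h, lowest with the second 0 h library from serum/LIF+2i left out. Where 1 library was left, it was assumed to vary like the other groups. Same-numbered replicates did not deviate together (correlations of -0.023 to 0.033 over 28 pairs of groups, 0 above 0.1), so the numbers are not treated as pairing. With the block, calls were gained for Zic2 in the last step in 2i/LIF (adjusted p = 0.00735) and in the 12 h interaction (0.000974), for Sox3 in the last-step interaction (0.0464), and between media at 24 h for Zic2 (0.00013), Pou3f1 (0.016) and Zic5 (0.0486), and none was lost. Sox3 between media at 0 h had no value in the fit of its own groups, where the filter removed it. At the floor of 3 counts, the depth limits Sox3 and Otx2 at 0 h.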
